A study of Homo sapiens with 2 samples.

Results

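The integrin and laminin genes of the human genome were examined for DNase I hypersensitive sites in 2 osteosarcoma cell lines. The members were the RefSeq protein-coding genes for integrin alpha and beta subunits and for the laminin alpha, beta and gamma chains, chosen by name. They numbered 38 of 19974 protein-coding genes on chromosomes 1 to 22 and X, and comprised 18 integrin alpha genes, 8 integrin beta genes and 12 laminin genes. DNase-seq had been made from Saos-2 and U2OS cells, both established lines grown from human bone tumours, with 1 library per line and no other genotype, treatment or time in the labels. Nuclei were digested with DNase I for 3 min at 37 °C, and the fragments were amplified for between 8 and 10 PCR cycles before sequencing. A hotspot is a stretch where the authors called an excess of DNase I cuts at a false discovery rate of 0.05, and each carries the authors' −log10 significance. For each member the hotspots were counted in a window made of the gene span and 10 kb on each side, on hg38.

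Integrins are receptors made of an alpha and a beta subunit that span the cell membrane and tie the extracellular matrix to the actin cytoskeleton. The pairing decides the ligand: some bind the RGD sequence of fibronectin and vitronectin, others bind collagens or laminins, and a further set serves leukocytes. Laminins are trimers of an alpha, a beta and a gamma chain and form the sheet on which basement membranes are built. Bone cells sit in a matrix rich in collagen and fibronectin. A site is called open below where it holds a hotspot, which is not a measure of how much RNA is made.

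RefSeq promoter entries, each covering 250 bases before and 50 bases after a transcription start on GRCh38.p14, were matched for 26 of the 38 members. Those with no matched entry included ITGA9, LAMC3, ITGA7, ITGAL, ITGAX, ITGAD, ITGB3, ITGA3, ITGB4, LAMA1 and ITGB2. The 10 promoters with a hotspot in at least 1 line are printed 5′ to 3′ on the gene's strand, because they are where the lines can be compared independently of gene length. Capitals mark the bases covered by a hotspot. The first 3 promoters had a hotspot in Saos-2 and none in U2OS. They belong to ITGA5 (chr12:54419217-54419516, minus strand), ITGA4 (chr2:181457136-181457435, plus strand) and ITGA10 (chr1:145910001-145910300, minus strand), and capitals are Saos-2 hotspot bases.
ITGA5: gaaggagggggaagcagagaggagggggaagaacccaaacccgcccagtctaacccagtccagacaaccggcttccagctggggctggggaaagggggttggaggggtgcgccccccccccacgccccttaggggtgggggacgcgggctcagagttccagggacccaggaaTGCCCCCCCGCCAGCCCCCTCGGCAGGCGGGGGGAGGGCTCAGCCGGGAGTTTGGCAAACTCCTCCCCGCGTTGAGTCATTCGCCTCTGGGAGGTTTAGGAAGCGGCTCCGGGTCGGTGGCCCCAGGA
ITGA4: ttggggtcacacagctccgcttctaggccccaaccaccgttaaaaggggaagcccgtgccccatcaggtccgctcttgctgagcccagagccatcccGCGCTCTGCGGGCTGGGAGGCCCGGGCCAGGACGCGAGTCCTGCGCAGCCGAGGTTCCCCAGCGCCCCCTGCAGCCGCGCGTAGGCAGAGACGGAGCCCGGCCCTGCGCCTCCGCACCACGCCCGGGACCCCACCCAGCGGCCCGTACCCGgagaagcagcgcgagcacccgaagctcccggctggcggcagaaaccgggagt
ITGA10: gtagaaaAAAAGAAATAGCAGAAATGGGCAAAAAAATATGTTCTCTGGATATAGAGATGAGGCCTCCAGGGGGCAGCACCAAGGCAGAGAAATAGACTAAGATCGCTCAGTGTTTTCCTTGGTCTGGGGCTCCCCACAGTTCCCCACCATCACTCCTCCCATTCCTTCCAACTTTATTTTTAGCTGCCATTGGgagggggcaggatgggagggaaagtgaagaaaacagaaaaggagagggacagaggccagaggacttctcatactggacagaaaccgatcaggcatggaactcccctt
The next 5 had a hotspot in U2OS and none in Saos-2, and capitals are U2OS hotspot bases. They belong to ITGA1 (chr5:52787666-52787965, plus strand), ITGA2 (chr5:52989102-52989401, plus strand), ITGA11 (chr15:68432114-68432413, minus strand), LAMA2 (chr6:128882888-128883187, plus strand) and LAMC1 (chr1:183023170-183023469, plus strand).
ITGA1: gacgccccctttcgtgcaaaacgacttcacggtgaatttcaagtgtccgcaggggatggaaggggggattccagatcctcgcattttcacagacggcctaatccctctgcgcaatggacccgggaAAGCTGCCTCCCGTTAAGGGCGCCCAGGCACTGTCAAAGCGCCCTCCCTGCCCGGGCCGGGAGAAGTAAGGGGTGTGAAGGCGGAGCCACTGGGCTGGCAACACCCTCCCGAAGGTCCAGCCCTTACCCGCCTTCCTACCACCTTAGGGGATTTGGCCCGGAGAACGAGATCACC
ITGA2: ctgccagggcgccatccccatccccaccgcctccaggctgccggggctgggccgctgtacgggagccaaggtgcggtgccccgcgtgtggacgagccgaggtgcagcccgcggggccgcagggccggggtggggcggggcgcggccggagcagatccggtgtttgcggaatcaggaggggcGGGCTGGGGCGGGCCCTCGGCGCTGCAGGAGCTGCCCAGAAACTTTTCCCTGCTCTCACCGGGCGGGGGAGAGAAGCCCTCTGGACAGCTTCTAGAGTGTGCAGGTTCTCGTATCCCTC
ITGA11: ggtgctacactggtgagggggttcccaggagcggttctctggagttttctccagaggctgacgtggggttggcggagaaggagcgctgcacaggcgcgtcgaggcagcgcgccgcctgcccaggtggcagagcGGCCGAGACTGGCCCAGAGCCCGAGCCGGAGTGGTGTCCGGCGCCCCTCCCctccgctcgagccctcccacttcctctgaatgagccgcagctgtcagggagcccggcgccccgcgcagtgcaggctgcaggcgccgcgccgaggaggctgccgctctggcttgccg
LAMA2: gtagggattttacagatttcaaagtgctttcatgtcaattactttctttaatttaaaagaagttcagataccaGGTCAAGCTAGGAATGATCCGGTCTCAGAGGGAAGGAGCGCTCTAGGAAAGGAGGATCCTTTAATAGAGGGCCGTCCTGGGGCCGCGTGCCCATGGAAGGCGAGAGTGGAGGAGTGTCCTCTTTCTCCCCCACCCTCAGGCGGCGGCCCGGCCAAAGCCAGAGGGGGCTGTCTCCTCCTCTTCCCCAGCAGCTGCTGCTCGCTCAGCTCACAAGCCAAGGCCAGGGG
LAMC1: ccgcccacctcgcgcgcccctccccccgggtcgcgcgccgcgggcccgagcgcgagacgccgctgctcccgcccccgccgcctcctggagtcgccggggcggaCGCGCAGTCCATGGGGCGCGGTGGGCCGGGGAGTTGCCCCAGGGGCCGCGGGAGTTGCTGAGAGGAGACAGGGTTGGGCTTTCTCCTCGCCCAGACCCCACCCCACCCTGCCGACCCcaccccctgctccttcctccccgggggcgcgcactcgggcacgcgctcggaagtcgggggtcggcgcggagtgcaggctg
The last 2 were covered in both lines, and capitals are bases within a hotspot of each line. They belong to ITGAV (chr2:186589806-186590105, plus strand) and ITGB1 (chr10:32958181-32958480, minus strand).
ITGAV: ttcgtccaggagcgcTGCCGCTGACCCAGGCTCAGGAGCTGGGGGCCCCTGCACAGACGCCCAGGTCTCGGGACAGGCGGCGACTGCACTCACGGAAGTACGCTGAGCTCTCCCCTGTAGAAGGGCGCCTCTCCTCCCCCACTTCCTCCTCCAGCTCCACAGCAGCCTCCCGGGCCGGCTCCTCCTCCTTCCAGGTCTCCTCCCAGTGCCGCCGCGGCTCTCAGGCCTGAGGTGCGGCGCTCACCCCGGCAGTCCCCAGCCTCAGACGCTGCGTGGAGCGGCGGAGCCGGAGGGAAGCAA
ITGB1: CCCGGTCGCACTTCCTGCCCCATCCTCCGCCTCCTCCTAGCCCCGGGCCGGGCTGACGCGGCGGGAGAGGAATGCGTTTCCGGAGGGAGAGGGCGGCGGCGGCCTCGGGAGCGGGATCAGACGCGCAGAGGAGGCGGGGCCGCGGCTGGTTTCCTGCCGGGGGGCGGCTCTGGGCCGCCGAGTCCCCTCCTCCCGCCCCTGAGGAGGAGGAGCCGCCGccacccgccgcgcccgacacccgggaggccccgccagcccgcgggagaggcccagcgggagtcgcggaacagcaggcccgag

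In Saos-2, 5 of the 26 member promoters had a hotspot, against 43.9% of 15812 protein-coding promoters. In U2OS, 7 of 26 had one, against 47.9%. The promoters of ITGAV, the alpha subunit of the vitronectin receptors, and of ITGB1, the beta subunit that most alpha subunits share, were open in both lines. These 2 are 7.69% of the members with an entry, against 39.7% of all promoters open in both lines. A promoter hotspot confined to the Saos-2 list was seen at 3 members, against 4.22% of all promoters. One confined to the U2OS list was seen at 5 members, against 8.22%. The remaining 16 promoter windows had none in either line, which is 61.5% of the members with an entry and 47.9% of all promoters. In this 300-base window the share of members with a hotspot was thus below the background share in each library. With 1 kb on each side of the start, 8 of the 26 had one in Saos-2 and 10 in U2OS, and no background share was taken there. LAMB2 (5.51 in Saos-2, 5.13 in U2OS) and ITGA6 (1.98 and 2.29) had one there in both lines. ITGB8 had one in both lines over the upstream end of its span, 1.10 kb before the start of its entry. Of the 8 promoter hotspots seen in 1 line, all but those of ITGA1 and LAMA2 were below the median of member hotspots in their line, which was 3.84 in Saos-2 and 4.51 in U2OS. The −log10 significance was 2.59 at ITGA5, 2.77 at ITGA4 and 3.14 at ITGA10 in Saos-2, and 1.32 at ITGA11, 1.77 at LAMC1, 2.03 at ITGA2 and 5.36 at ITGA1 in U2OS. LAMA2 was the highest of them, at 9.67 in U2OS. With only the more significant 50% of each list, no member promoter was open in Saos-2 alone and 3 were open in U2OS alone. ITGAV held a strong promoter hotspot in both lines, at 8.84 in Saos-2 and 9.99 in U2OS. ITGB1 was at 3.34 in Saos-2 and 15.6 in U2OS. Another gene starts within 1 kb of some of these hotspots, namely GPR84-AS1 at ITGA5, ITGA2-AS1 at ITGA2, PELO at ITGA1 and LOC124906105 at ITGAV, and the hotspots cannot be assigned to 1 gene of each pair.

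**Figure D1:**
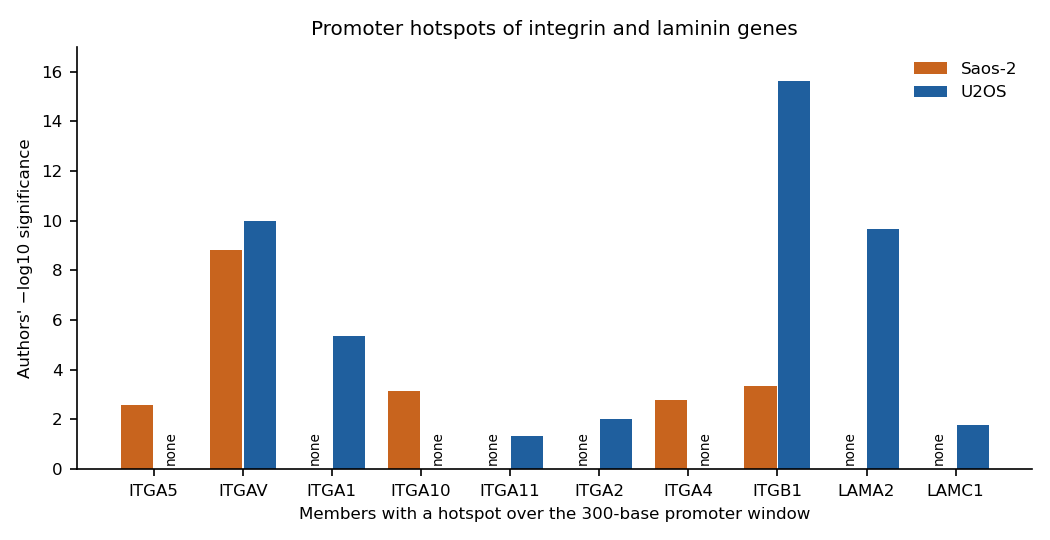
Authors' −log10 significance of the promoter hotspot of each member that had one, per line, with 1 library per line. ITGAV was near 9 or 10 in each line, whereas ITGB1 was at 3.34 in Saos-2 and at 15.6 in U2OS, and LAMA2 was called in U2OS alone.

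Short motifs were searched on both strands of the 26 promoters, as letters only. The AP-1 motif TGANTCA was in 2 promoters (7.69%, against 5.76% of all 15812), the GC box GGGCGG in 14 (53.8% against 58.5%), and the E-box CANNTG in 14 (53.8% against 64.5%). The letters TGNGGT, a loose form of the RUNX motif, were in 17 (65.4% against 41.5%), and the TEAD motif GGAATG was in 4 (15.4% against 11.7%). TGNGGT takes any base at N, where the RUNX core has only T or C, so its counts are not counts of RUNX cores. In ITGA5 the AP-1 letters begin 6 bases before the start and lie inside the Saos-2 hotspot. The other promoter window with AP-1 letters, that of LAMA3, had no hotspot. The LAMA3 entry is a start inside the gene span. A hotspot lay 1.36 kb upstream of it in Saos-2, at 1.66, and 1.41 kb upstream in U2OS, at 3.95. The TEAD letters stood in the promoters of ITGA5, ITGA10, ITGB1 and LAMA2, all of which had a hotspot, and lay inside it in the last 3. Among all 8240 promoters with a hotspot the TEAD share was 10.5%, against 11.7% of all promoters. The TGNGGT letters were in 5 of the 10 member promoters with a hotspot and in 12 of the 16 without. Such matches are descriptions of the sequence and not binding sites.

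Over the whole gene window, 30 of the 38 members had a hotspot in Saos-2 and 35 in U2OS, against 75% and 81.7% of all protein-coding genes. Both lines had one at 27 members. Saos-2 alone had one at 3 members (ITGA5, ITGA4 and ITGB7), against 4.24% of all genes. U2OS alone had one at 8 (ITGA2B, ITGA8, ITGA2, LAMA1, LAMB4, ITGAD, ITGAM and ITGAX), against 10.9%. No member was without a hotspot in both lines. Members are long genes, with a median span of 79.2 kb against 24.2 kb for all, so a window hotspot is more likely in them. Among the 5130 genes with spans between 36.7 and 121 kb, the middle of the members' range, 3.29% were covered in Saos-2 alone and 9.26% in U2OS alone. Of the 18 members in that range, 1 was covered in Saos-2 alone and 3 in U2OS alone.

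A member was counted as differing where 1 line had at least 2-fold the covered bases of the other and at least 200 bp more, a line at 0 included. By this measure 9 members were higher in Saos-2, against 8.69% of all genes, and 13 in U2OS, against 20.3%. Of the 18 members with spans between 36.7 and 121 kb, 2 were higher in Saos-2 and 6 in U2OS, against 487 and 1072 of the 5130 genes. The median difference, U2OS minus Saos-2, was 256 bp for the members and 30 bp for all genes. In that span range it was 262 bp for the 18 members and 81 bp for the 5130 genes. U2OS had more covered bases at 23 of 38 members and at 10558 of all 19974 genes, and Saos-2 at 15 and 6579. The lines were equal at 0 members and at 2837 genes, 2816 of which had no hotspot in either line. Of the 22 members past the limit, 10 stayed past it with 50 kb on each side. ITGB2, LAMA4, ITGA2, ITGA8, LAMA1 and LAMA2 stayed past it under each alternative tried. The 12 that did not pass with 50 kb were ITGA2B, ITGA5, ITGA9, ITGA10, ITGAD, ITGAE, ITGB4, ITGB7, LAMA5, LAMB4, LAMC1 and LAMC3. The U2OS list is also the longer, with 63388 hotspots against 51556, or 1.23-fold. The read depth of the libraries is not given in the sources used here, so more hotspots through greater depth, more gene copies and more open chromatin cannot be told apart. With 1 library per line, every difference compares 2 libraries and has no replicate error. Per 100 kb of window, the most covered members in Saos-2 were ITGA10 (4413 bp), ITGB2 (2303 bp) and ITGB3 (2128 bp). In U2OS they were ITGB3 (4417 bp), ITGA3 (3480 bp) and LAMA5 (2901 bp). Some of these bases lie near the starts of other genes, as at ITGA3 and LAMA5. A gene without a hotspot had none that passed the authors' threshold, which does not show closed chromatin.

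**Figure D2:**
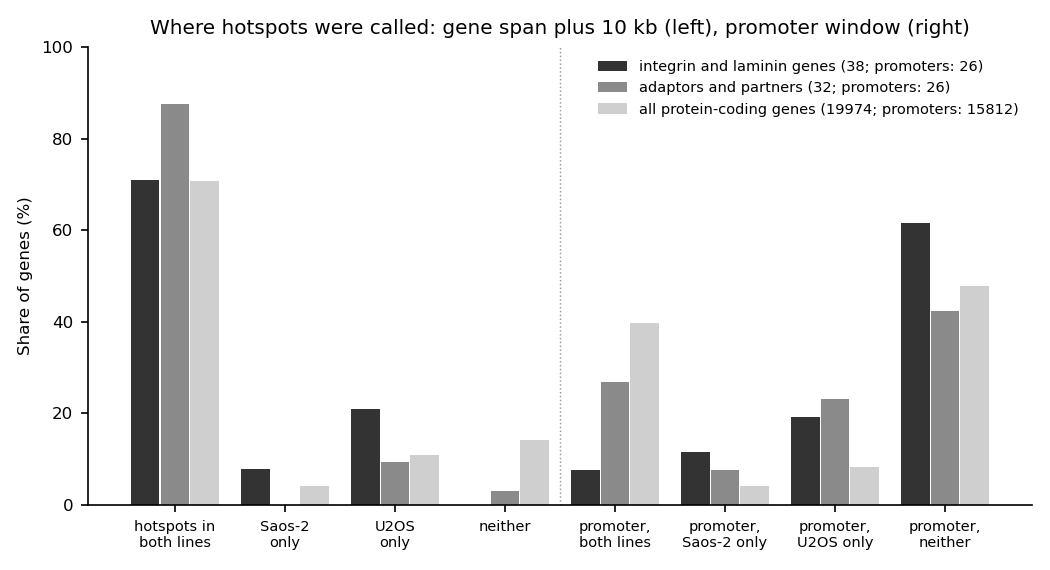
Share of genes, in percent, with a hotspot in both lines, in 1 line or in neither, for the members, the list of integrin partners and all protein-coding genes, in the gene window and in the promoter. The members had a larger share in U2OS only (21.1%) than all genes (10.9%), and none in neither line.

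**Figure D3:**
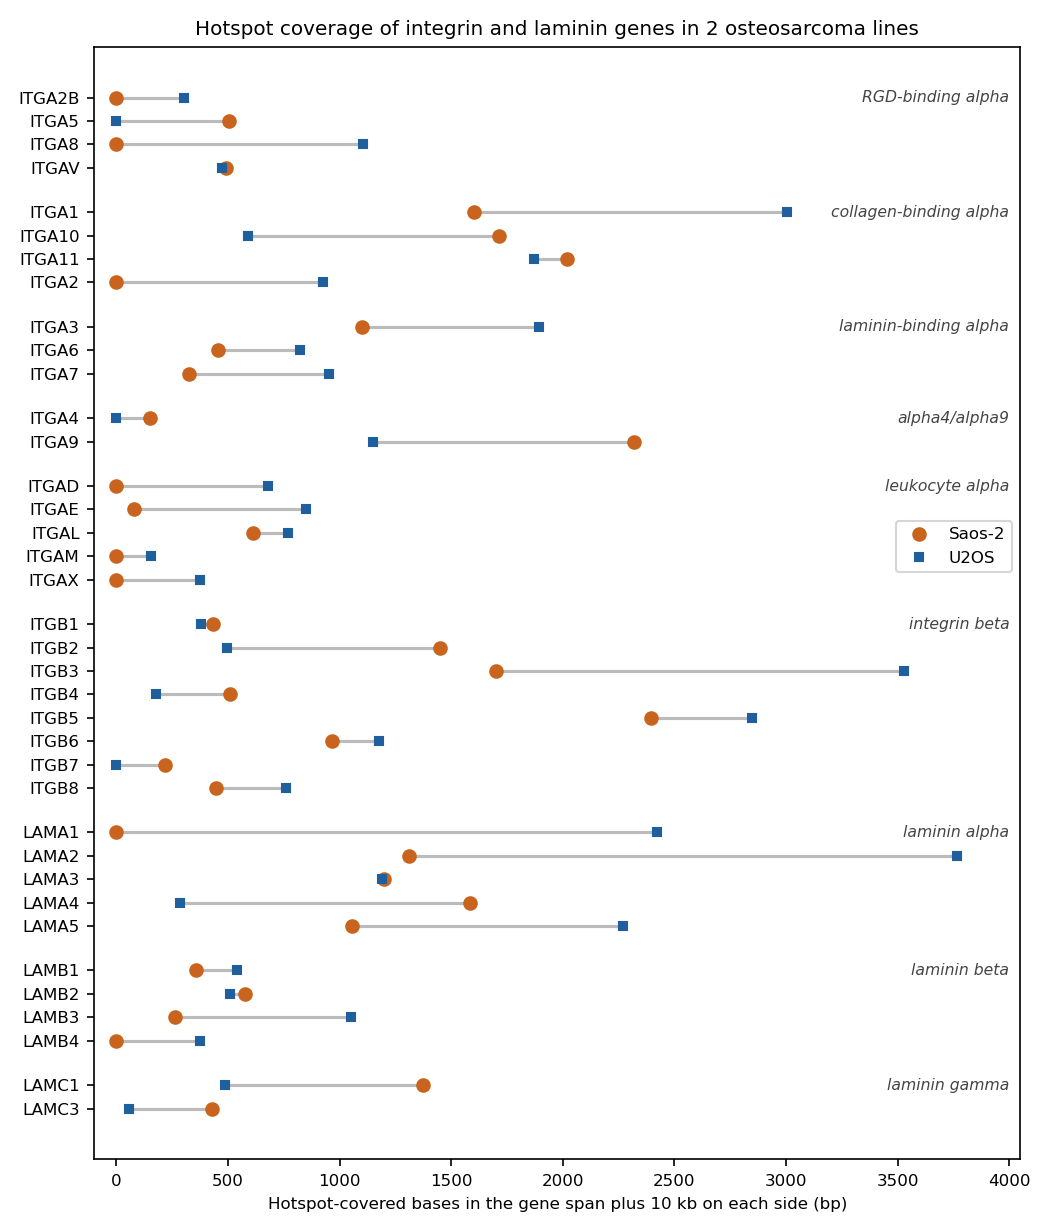
Hotspot-covered bases (bp) in the gene span plus 10 kb on each side for the members reported here, grouped by role; circles are Saos-2 and squares are U2OS, 1 library each. LAMA2, LAMA1 and ITGB3 lay farthest toward U2OS, and LAMA4, ITGA9 and ITGA10 farthest toward Saos-2.

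Among the RGD-binding alpha subunits, ITGA5 was covered in the Saos-2 list alone, ITGA8 and ITGA2B in the U2OS list alone, and ITGAV in both. ITGA5, which pairs with ITGB1 as the classical fibronectin receptor, had 503 covered bp in Saos-2 and 0 in U2OS. Its 2 Saos-2 hotspots were the promoter site and a stronger one 7.67 kb into the gene (chr12:54411415-54411769), at 9.15. ITGA8, which with ITGB1 binds nephronectin, went the other way, with 0 bp in Saos-2 against 1103 bp in 5 U2OS hotspots. The strongest of these (chr10:15518140-15518723) reached 33.2 and lay 201 kb from the start, near the far end of the gene. ITGA2B, the platelet subunit of the fibrinogen receptor, had 0 bp in Saos-2 against 303 bp in U2OS, in 1 hotspot at 3.95 that the more significant 50% of the list does not hold. ITGAV was alike in both lines, at 493 bp and 472 bp. Around ITGA8, in 1 Mb on each side outside the window, 21 hotspots were called in Saos-2 against 43 in U2OS, a ratio of 2.05, so the gene lies in a region richer in U2OS hotspots as a whole. Around ITGA5 the ratio was 1.75, with 36 in Saos-2 and 63 in U2OS, opposite to the gene itself. The part of such regions in the gene's difference was not tested.

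Of the collagen-binding alpha subunits, which pair with ITGB1, ITGA1 and ITGA2 had more covered bases in U2OS, ITGA10 had more in Saos-2, and ITGA11 differed little. ITGA1 had 1603 bp in 5 hotspots in Saos-2 against 3003 bp in 11 in U2OS. ITGA2, its neighbour on chromosome 5, had 0 bp in Saos-2 against 924 bp in 5 U2OS hotspots. The most significant lay 30.1 kb into the gene (chr5:53019365-53019634), at 7.15. Saos-2 therefore had several hotspots along ITGA1 but none called across ITGA2. The region around both was richer in U2OS, with ratios of 2.46 at ITGA1 and 2.05 at ITGA2. Each of these regions includes the window of the other gene, so the ratios overlap and are not independent of the members' own hotspots. Near the ITGA1 start lies that of PELO, and without hotspots within 1 kb of another protein-coding start the ITGA1 difference was 673 bp in place of 1400 bp.

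ITGA10, a collagen receptor best known from cartilage, had 1714 bp in 4 Saos-2 hotspots and 589 bp in 1 U2OS hotspot. The site near the end of the gene, 17.9 kb from its start (chr1:145891838-145892501 in Saos-2), was the most significant of all member hotspots in Saos-2, at 71.9. U2OS called the same place at 29.9. The other 3 Saos-2 hotspots were 2 flanking sites, at 13.7 and 8.11, and the promoter. Within the gene span alone the lines were close, at 664 bp and 589 bp, so the difference came from the flanks, where 1 site is near the start of ANKRD35-DT. The surrounding region was richer in Saos-2, with 59 hotspots against 25. ITGA11, a fibroblast receptor for fibrillar collagen, had 2018 bp in Saos-2 against 1873 bp in U2OS. At ITGA11, 4 of 6 Saos-2 hotspots were overlapped by 1 in U2OS, and the strongest U2OS hotspot, at 13.5, was at a place with no Saos-2 call.

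Of the laminin-binding alpha subunits, ITGA7 passed the 2-fold limit in favour of U2OS, and ITGA3 and ITGA6 did not pass it. ITGA3 had 1101 bp in Saos-2 against 1892 bp in U2OS, and ITGA6, which can also pair with ITGB4 in hemidesmosomes, had 453 bp and 824 bp. The ITGA6 difference of 371 bp was 66 bp with lists of equal length and -2 bp with the more significant 50% of each list. ITGA7, a muscle laminin receptor, had 327 bp and 954 bp. Its 3 U2OS hotspots all lay within 1 kb of the starts of TMT1B or BLOC1S1. Without them ITGA7 had 54 bp in Saos-2 and 0 in U2OS, so the ITGA7 difference cannot be assigned to that gene.

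Of ITGA4 and ITGA9, which form a subfamily of their own, ITGA9 passed the limit in favour of Saos-2 and ITGA4 did not pass it. ITGA4, a receptor for VCAM1 and fibronectin, had only its promoter hotspot of 151 bp in Saos-2 against 0 bp in U2OS. ITGA9, a receptor for tenascin among others, had 2317 bp in 10 Saos-2 hotspots and 1150 bp in 4 U2OS hotspots, just past the 2-fold limit. The other 3 U2OS hotspots of ITGA9 were between 2.49 and 3.05, and the 10 Saos-2 hotspots between 1.80 and 7.59. At a shared place (chr3:37713111-37713682 in U2OS) ITGA9 reached 29.8 in U2OS and 3.55 in Saos-2, which is the reverse of the gene's covered bases. Restricted to hotspots of at least 200 bp, ITGA9 no longer passed the limit, at 1623 bp and 992 bp.

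Of the 5 leukocyte alpha subunits, which pair with ITGB2 or, for ITGAE, with ITGB7, 3 passed the limit in favour of U2OS (ITGAD, ITGAE and ITGAX), and ITGAL and ITGAM did not pass it. ITGAD had 0 bp in Saos-2 against 681 bp in U2OS, ITGAX 0 and 373 bp, and ITGAM 0 and 153 bp. The 3 genes are neighbours on chromosome 16, and 1 U2OS hotspot (chr16:31386267-31386484) lies in the windows of both ITGAD and ITGAX. The hotspots of ITGAX and ITGAM lie in the flanks, so in the gene span alone both genes had 0 bp in each line, and they also had 0 bp with the more significant 50% of each list. ITGAE, which with ITGB7 binds E-cadherin, had 79 bp and 848 bp, and ITGAL, the LFA-1 alpha subunit, had 610 bp and 769 bp. The ITGAE site called in both lines, 79 bp wide in Saos-2 and 297 bp in U2OS, also overlapped the span of P2RX5. In U2OS it overlapped that of HASPIN as well. Part of the ITGAL value in each line is a hotspot at the start of ZNF768, and with 50 kb on each side the ITGAL difference was -139 bp. The regions around these 5 genes held no U2OS excess, with ratios between 0.939 and 0.984.

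The beta subunits showed no common direction, with 4 of 8 higher in each line. ITGB3, the partner of ITGAV and ITGA2B, had 1701 bp in 6 Saos-2 hotspots and 3530 bp in 11 U2OS hotspots. All but 1 of its 6 Saos-2 hotspots were overlapped in U2OS, where the strongest (chr17:47279087-47279688) was at 31.7 against 12.7 in Saos-2. ITGB3 passed the 2-fold limit narrowly, and with lists of equal length it had 1701 bp and 3281 bp and did not pass. ITGB5, which joins ITGAV in a further vitronectin receptor, was well covered in both lines, at 2393 bp and 2846 bp. Its shared intragenic site 40.6 kb from the start (chr3:124860563-124861036 in U2OS) was at 17.4 in Saos-2 and 41.4 in U2OS. About 110 kb from the start ITGB5 also held a Saos-2 site at 12.5 (chr3:124791544-124792045) with no overlap in U2OS.

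ITGB2, the beta chain of the leukocyte integrins, had more covered bases in Saos-2, at 1448 bp against 494 bp. Its Saos-2 hotspots clustered at chr21:44927452-44928925, where 3 were called, at 6.30, 6.97 and 8.87, and U2OS called 1, at 3.76. ITGB2 thus passed the limit in favour of Saos-2, and ITGAD, ITGAE and ITGAX in favour of U2OS. ITGB4, the hemidesmosome subunit, had 508 bp in Saos-2 against 178 bp in U2OS. ITGB7 had 217 bp in Saos-2, in 1 hotspot at 3.24 that the more significant 50% of the list does not hold, and 0 in U2OS. ITGB1 had 433 bp and 377 bp, ITGB6, an epithelial subunit, 966 bp and 1175 bp, and ITGB8 445 bp and 760 bp, so these 3 did not pass the limit.

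The largest differences in covered bases in favour of U2OS, 2457 bp and 2424 bp, were at the laminin alpha genes LAMA2 and LAMA1. LAMA1, the alpha chain of early embryonic basement membranes, had 0 bp in Saos-2 against 2424 bp in 6 U2OS hotspots, all inside the gene span. The strongest of them (chr18:7038241-7038919) reached 43.4, the highest of all member hotspots in U2OS. The others at LAMA1 ranged from 6.74 to 19.0. LAMA2, the alpha chain of muscle and nerve basement membranes, had 1309 bp in 3 Saos-2 hotspots and 3766 bp in 13 U2OS hotspots. All 3 Saos-2 sites were overlapped in U2OS, while U2OS also held the promoter site and a site 221 kb into the gene at 14.4 (chr6:129104150-129104620) without a Saos-2 call. In the surrounding 1 Mb, LAMA1 had 31 hotspots in Saos-2 against 64 in U2OS, and LAMA2 24 and 46. The regions thus differed in the same direction as the genes, and whether more copies of them are present in U2OS was not tested.

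LAMA4, the alpha chain of vessel walls and mesenchymal tissues, was the reverse, with 1586 bp in 7 Saos-2 hotspots and 287 bp in 2 U2OS hotspots. The strongest Saos-2 site (chr6:112251480-112251896) lay 2.88 kb into the gene, at 9.95, and 6 of the 7 had no U2OS overlap. LAMA2 and LAMA4 lie on the same chromosome and differed in opposite directions. Around LAMA4 the region held 60 hotspots in Saos-2 against 45 in U2OS. LAMA5, a broadly expressed epithelial chain, had 1054 bp and 2270 bp. Of its U2OS hotspots, the strongest, at 26.0 and 19.8, were at the start of ADRM1 in the flank, as were the strongest in Saos-2, at 8.19 and 12.3. LAMA3 had 1200 bp in Saos-2 against 1190 bp in U2OS, but at partly different places, with 3 of 6 Saos-2 hotspots overlapped.

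**Figure D4:**
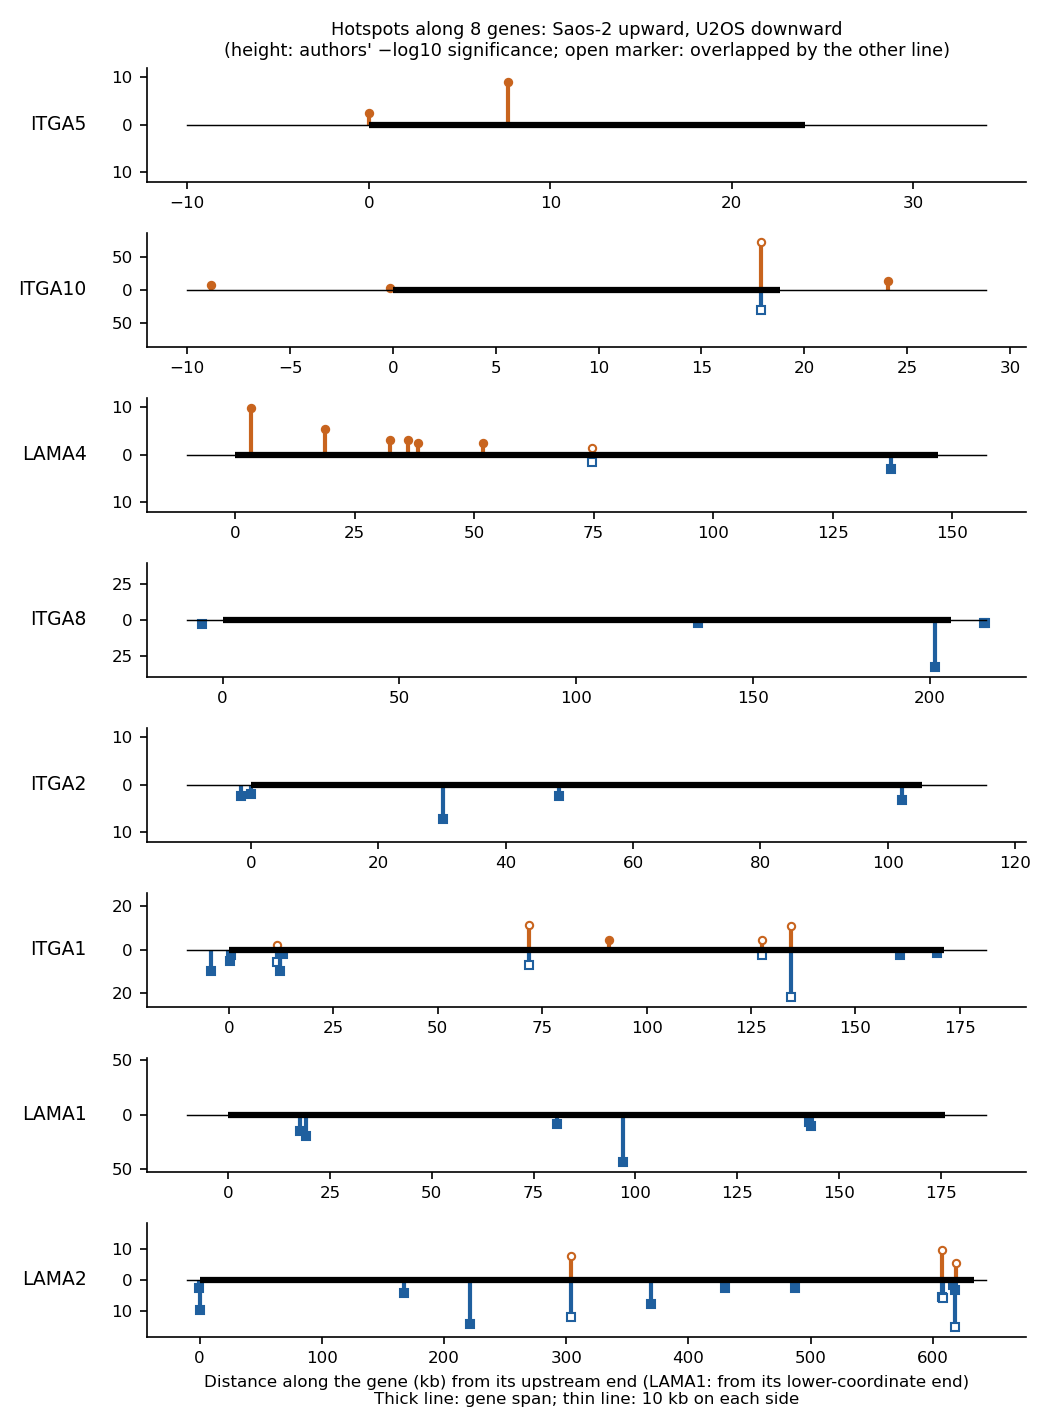
Hotspots along 8 members, as distance in kb (x) against the authors' −log10 significance, with Saos-2 upward and U2OS downward; open markers are overlapped by the other line. ITGA5 shows Saos-2 marks alone, ITGA8, ITGA2 and LAMA1 show U2OS marks alone, and LAMA2 shows 13 U2OS marks against 3 in Saos-2.

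Of the 4 laminin beta chains, LAMB3 and LAMB4 passed the limit in favour of U2OS, and LAMB1 and LAMB2 did not pass it. LAMB3, a chain of the laminin of skin basement membrane, had 263 bp in 3 Saos-2 hotspots and 1052 bp in 4 U2OS hotspots, and none of them overlapped. The strongest U2OS sites of LAMB3 lay 0.785 kb and 4.87 kb upstream of the start, at 7.87 and 7.49, while the Saos-2 sites were between 1.45 and 2.07. In the gene span alone LAMB3 had 187 bp in Saos-2, against 280 bp in U2OS, and did not pass. LAMB4 had 0 bp in Saos-2 against 376 bp in U2OS, and 0 bp in each line with the more significant 50% of each list or with hotspots of at least 200 bp. LAMB1, a chain of most laminins, had 355 bp and 542 bp. LAMB2, of the synaptic and kidney basement membranes, had 574 bp and 511 bp, with 1 of its 2 sites in each line at the start of USP19.

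Among the gamma chains, LAMC1, the chain found in most laminins, had 1373 bp in 6 Saos-2 hotspots and 485 bp in 3 U2OS hotspots. An intragenic site 48.1 kb from the start (chr1:183071321-183071664) was at 12.5 in Saos-2 without a U2OS call. The promoter window of LAMC1 held a U2OS hotspot and none in Saos-2, but that hotspot was at 1.77, below the U2OS member median of 4.51. Within 1 kb upstream of the start both lines shared a site, at 2.08 in Saos-2 and 3.73 in U2OS. LAMC3 had 429 bp in Saos-2 against 58 bp in U2OS. Its more significant Saos-2 hotspot, at 7.39, lies in the flank within the span of AIF1L, and in the gene span alone LAMC3 had 134 bp in Saos-2 and 0 in U2OS and did not pass.

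The overlap between the lists was read as a share of each list, beside the share in all protein-coding windows, which include the members. In Saos-2, 58 of 109 member hotspots shared at least 1 base with a U2OS hotspot, or 53.2% (95% Wilson interval 43.9 to 62.3), against 60.8%. In U2OS the shared part was 59 of 146, or 40.4% (32.8 to 48.5), against 51.8%. These intervals cover counting error only and count each hotspot as independent, although LAMA2 alone held 9 of the 87 U2OS hotspots without overlap. The Saos-2 interval holds the background share and the U2OS interval does not, which is no test of a difference. With 50 kb on each side the shares were 63.7% in Saos-2 and 52.4% in U2OS, and no background share was taken at that window. Most member hotspots lay inside gene spans, with 83 of 109 in Saos-2 and 103 of 146 in U2OS. The spans also make up most of the window length and no background share was taken, so these counts show no preference for spans. Within 1 kb of the start of another gene, noncoding genes included, lay 13 in Saos-2 and 20 in U2OS. The gene table gives spans without exons, so exonic and intronic sites were not separated.

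At the places called in both lines, 55 pairs of overlapping hotspots could be compared. The U2OS hotspot was the more significant in 39 of 55 pairs (70.9%), against 62.7% of 27672 pairs genome-wide. The median of the paired values was 3.84 in Saos-2, against 6.40 in U2OS. Integrin genes had 28 of 39 pairs higher in U2OS and laminin genes 11 of 16. Across the 55 pairs Spearman's rho was 0.56, against 0.45 over all pairs, as a description, since pairs share the libraries and their depth. As log2 of the U2OS value over the Saos-2 value, the pairs farthest toward U2OS were those of ITGA9 (3.07), ITGB3 (2.79) and ITGA11 (2.59). Those farthest toward Saos-2 were pairs of LAMC1 (-1.39), ITGA10 (-1.27) and ITGA11 (-1.15), so ITGA11 held a pair at each end.

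**Figure D5:**
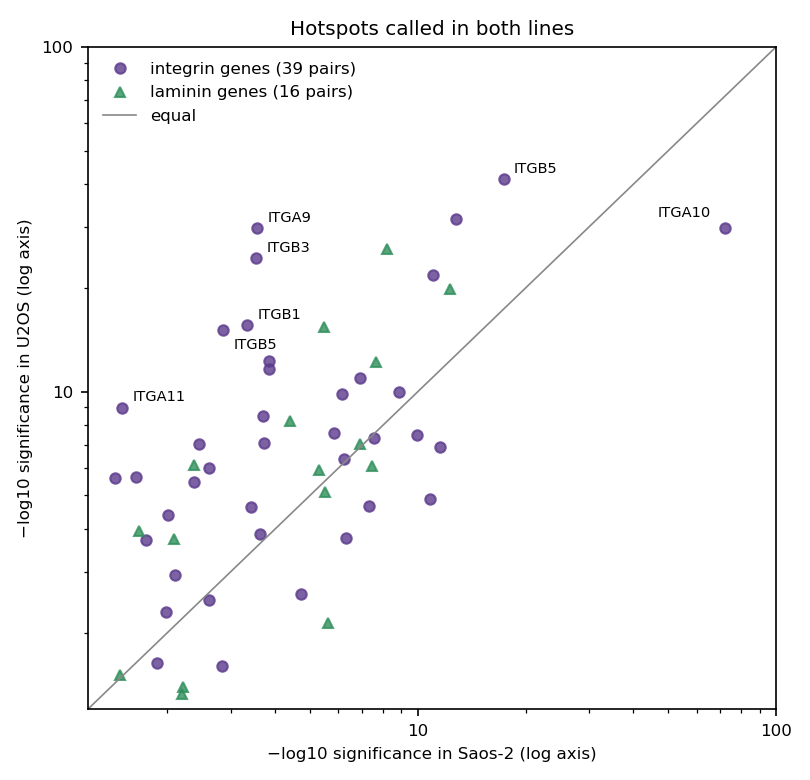
Authors' −log10 significance in Saos-2 (x) and U2OS (y), both on log axes, for the 55 overlapping hotspot pairs of the members; the line marks equal values. Points above the line, 39 of 55, are more significant in U2OS, and the ITGA10 pair at 71.9 and 29.9 stands to the lower right.

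The number of hotspots in the surrounding region differed in the same direction at some members and not at others. Over the 13 members called higher in U2OS, the median ratio of U2OS to Saos-2 hotspots in the surrounding 1 Mb was 1.57. Over the 9 called higher in Saos-2 it was 0.972, against 1.33 over all 38 members and 1.23 for the whole lists. For members covered in 1 line only the order was the reverse. The median ratio was 1.75 over the 3 covered in Saos-2 only and 1.23 over the 8 covered in U2OS only. It was above 1 at all 3 of the former and at 5 of the 8. ITGAD, ITGAE and ITGAX were higher in U2OS in regions with ratios of 0.95, 0.962 and 0.968. ITGA5, ITGB7, ITGA9 and LAMC1 were higher in Saos-2 in regions with ratios of 1.75, 1.46, 1.39 and 1.16. Regions of neighbouring members overlap and include each other's windows, as at ITGA1 and ITGA2 or at ITGAD and ITGAX. Gene copy number was not analysed here, and its part in these differences was not tested.

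Integrin partners were read from a list of 32 adaptors, kinases and matrix proteins. A hotspot was present in both lines at 28, against 70.8% of all genes, in U2OS only at 3 (ILK, SRC and TNS2), against 10.9%, and in neither at 1, against 14.1%. The last was SPP1, which encodes osteopontin. By the 2-fold measure 13 of 32 were higher in U2OS, against 20.3% of all genes, and 1, COL4A1, in Saos-2, against 8.69%. The median difference was 487.5 bp in favour of U2OS, a wider gap than for the members. Among adaptors that bind integrin tails or link them to actin, the promoter of vinculin (VCL) was at 12.4 in Saos-2 and 35.2 in U2OS, talin (TLN1) at 7.36 and 26.2, and ITGB1BP1 at 16.3 and 21.2. BCAR1, a docking protein of focal adhesions, was at 1.44 and 6.81. Zyxin (ZYX), an adaptor on actin at focal adhesions, went the other way, at 12.8 in Saos-2 and 2.65 in U2OS. Dystroglycan (DAG1), a laminin receptor that is no integrin, was at 7.44 and 6.24. Fibronectin (FN1), the ligand of the ITGA5 receptor, was at 5.99 and 8.77. Of 26 partners with a promoter entry, 7 were open in both lines, 2 in Saos-2 alone, 6 in U2OS alone and 11 in neither. The 2 in Saos-2 alone were HSPG2, at 1.66, and NID2, at 4.01, and those in U2OS alone were between 2.90 and 10.4. The share in both lines was 26.9%, against 39.7% of all promoters, and the share in neither was 42.3%, against 47.9%. In Saos-2 alone the share was 7.69%, against 4.22%, and in U2OS alone 23.1%, against 8.22%.

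Cell type markers were looked at by hotspots within 1 kb of a gene end. Osteoblast or mesenchymal markers had one at 3 of 7 genes in each line. Epithelial markers had one at 0 of 6 in Saos-2 and 2 of 6 in U2OS, leukocyte markers at 2 and 3 of 6, endothelial markers at 0 of 5 in each line, and muscle markers at 0 and 1 of 4. The members had one at 10 of 38 in Saos-2 and 19 of 38 in U2OS, against 9577 and 10667 of all 19974 genes. Whether other cells were present in the cultures was not tested.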

How the data were processed

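DNase-seq hotspot lists of Saos-2 and U2OS, 1 library each, were used as the authors deposited them. Per the submitters' processing notes, reads were trimmed with Trimmomatic 0.38 and aligned with BWA 0.7.15 to hg38. Their settings are not given in the sources used here. The hotspot caller is not given in the sources used here, and the deposited lists state a false discovery rate of 0.05. Each deposited hotspot has a −log10 value, read as the authors' significance, since its lowest value was the −log10 of 0.05. The column has no header. The deposited score column differed from 10 times this value by at most 0.5 and was not used further.

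Gene spans and promoters came from RefSeq GRCh38.p14, the primary assembly of hg38. Hotspots were assigned by overlap of at least 1 bp with Python 3.11.15, numpy 2.4.6, scipy 1.17.1 and statsmodels 0.14.6, and plots were made with matplotlib 3.10.9. The overlap code was tested on simulated intervals with known answers. With 1 library per line no test between lines was made, and read depth is unknown. Wilson 95% intervals cover counting error only.

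The members and lists were chosen with earlier results of these data known. Full values were given for 22 members: those covered in 1 line only, the 6 largest differences each way, promoters open in 1 line, the 5 most significant hotspots per line without overlap, and the 3 most significant per line. ITGA3, ITGA6, ITGA7, ITGAE, ITGAL, ITGAV and the remaining members are described by role, and 1 member counted in the totals is not reported here. Alternatives were lists of equal length, the more significant 50% of each list, hotspots of at least 200 bp, merging within 150 bp, other windows and stricter overlap. Leaving out hotspots within 1 kb of another protein-coding start was chosen after seeing the data.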

Additional observations from a re-analysis of the deposited data

How the results depend on the processing

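Of 85 recomputed counts, shares and medians, 61 moved little and 24 moved. Members covered in Saos-2 only, 3 as reported, numbered 6 with the more significant 50% of each list, 5 with hotspots of at least 200 bp, 5 in the gene span alone and 0 with 50 kb on each side. Those covered in U2OS only, 8 as reported, fell to 3 with 50 kb, and those called higher in Saos-2, 9 as reported, to 2. The share of shared member hotspots became 63.7% in Saos-2 and 52.4% in U2OS with 50 kb, and 36.7% and 27.4% where the overlap had to cover 50% of both hotspots. Promoters open in Saos-2, 5 as reported, numbered 1 with the top 50%, 2 with at least 200 bp and 8 within 1 kb of the start. Those open in U2OS, 7 as reported, numbered 4 with lists of equal length, with the top 50% and with at least 200 bp. Promoters open in Saos-2 only, 3 as reported, numbered 0 with the top 50% and with at least 200 bp. Those open in U2OS only, 5 as reported, numbered 2 with equal lists, 3 with the top 50% and 2 with at least 200 bp. The median difference of 256 bp became 125 bp with equal lists, 97.5 bp with the top 50% and 128 bp in the gene span alone. The cause of these shifts was not tested. ITGA7, higher in U2OS as reported, turned to -54 bp (U2OS minus Saos-2) without hotspots near other gene starts. Calls held under all settings for 2 of 9 members higher in Saos-2 (ITGB2 and LAMA4) and 4 of 13 higher in U2OS (ITGA2, ITGA8, LAMA1 and LAMA2). No replicate could be left out and no paired analysis was possible because each line had 1 library. Depth is unknown, so a missing hotspot is not a closed site.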
